A study of Homo sapiens with 6 samples.

Results

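The enzymes of cholesterol and fatty acid synthesis were examined in HepG2 cells exposed to TGFβ. They comprised 32 genes chosen by name from the 57773 genes of the deposited count table: 8 of the mevalonate arm, 12 of the sterol arm and 12 of the fatty acid arm. HepG2 is an established human line derived from a liver cancer. 3 cultures received 5 ng/mL of recombinant TGFβ1 for 3 h and 3 received vehicle for 3 h, and poly(A) RNA was sequenced from each. All 6 cultures were grown in medium with fetal bovine serum, and the study's methods describe a change to medium without serum for TGFβ treatment in both groups. All belong to a single line at a single time, so the values describe early mRNA changes in that line.

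Cholesterol and fatty acids are both built from cytosolic acetyl-CoA. The mevalonate arm turns it into isoprenoid diphosphates, the sterol arm joins these into squalene and converts squalene to cholesterol, and the fatty acid arm makes palmitate, then elongates and desaturates it. In hepatocytes these genes are known to be transcribed under the SREBP factors, which are released from the endoplasmic reticulum when sterols are low. The question put to the data was whether the mRNAs of the 3 arms changed within 3 h of TGFβ.

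Gene counts summed to between 60815385 and 100099136 reads in a culture. The TGFβ labels were checked on SMAD7, SKIL and PMEPA1, known early targets of the pathway, which were higher with TGFβ by 1.72, 2.45 and 4.30 on the log2 scale. All 8 hepatocyte markers listed exceeded 1 RPKM (a read count scaled by gene length and library size), with a summed level of 7081 to 7844 RPKM in vehicle and 6550 to 7751 in TGFβ cultures. Most markers of other cells were low. The 6 mesenchymal markers summed to 1.33 to 1.58 RPKM in vehicle and 2.21 to 3.70 with TGFβ, mostly from PDGFRB and COL1A1. COL1A2, COL3A1, LUM and DCN were near 0. The 4 endothelial markers in the table summed to at most 0.0286 RPKM. Of the 5 immune markers, 3 exceeded 1 RPKM in some culture, while PTPRC and CD3E were at or near 0. Their sum (522 to 699 in vehicle and 461 to 474 with TGFβ) was almost wholly LYZ. CD68 had a mean of 13.9 RPKM in vehicle and 14.1 with TGFβ, and CD14 of 0.97 and 1.21. The part of these shifts in the results was not tested. In bulk RNA, fewer cells making a transcript and less transcript per cell cannot be told apart.

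No enzyme of the 3 arms passed the test for a change with TGFβ. Of the 32 genes, 31 had enough reads to be tested, and 0 were called in either direction by the edgeR quasi-likelihood test at a Benjamini-Hochberg adjusted p under 0.05, where 4.12% of all 22747 tested genes were called (3.11% higher and 1.01% lower). The culture numbers pair the samples, and with the number as a replicate block the count was again 0, where 11.8% of all genes were called (8.08% higher and 3.75% lower). At an unadjusted p under 0.05 there were 0 members without the block, against 13.7% of all genes, and 2 with it (IDI1 and ELOVL1), against 23.6%. DESeq2 and limma-voom also called 0 members, where they called 1420 and 891 of the 22747 genes.

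The fitted changes were small as well as uncalled. They ran from −0.18 (ELOVL6) to 0.19 (IDI1) on the log2 scale, with 14 above 0 and 17 below. Their median was −0.01 and the median of their absolute size was 0.05, against −0.01 and 0.14 over all tested genes. The standard error had a median of 0.11 (log2) without the block and 0.05 with it, against 0.15 and 0.11 over all tested genes. It was smaller with the block for all 31 members. The part of this smaller error in the smaller absolute size was not tested. The 95% intervals of the 31 members, each unadjusted for the number of genes, reached no further than 0.705-fold (HMGCS1) and 1.39-fold (IDI1) without the block. With the block they lay between 0.764-fold (ELOVL6) and 1.25-fold (IDI1). Those intervals leave room for changes of that size in single members, and the p-values measure the spread between these cultures, whose separateness the labels do not describe.

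**Figure D1:**
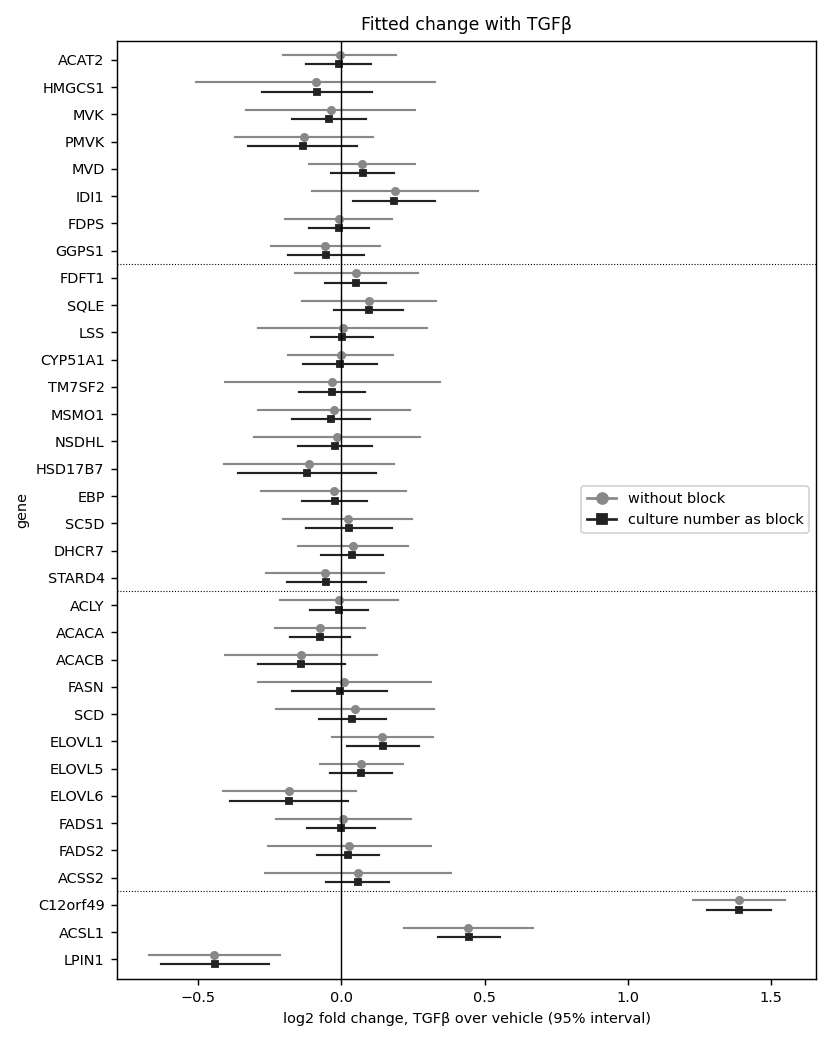
Fitted log2 fold change of TGFβ over vehicle (x axis) for the 31 tested enzymes, grouped by arm between dotted lines, and for C12orf49, ACSL1 and LPIN1 below. Grey circles are the fit without and black squares the fit with the culture number as a block, and bars are 95% intervals. The enzymes lie between −0.18 and 0.19, while C12orf49 stands at 1.39.

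In the mevalonate arm, 2 of 8 genes had an estimate above 0 and 6 below, and the median log2 fold change was −0.02. The summed level of the arm was 169 ± 8.93 RPKM in vehicle and 165 ± 13.6 with TGFβ (SD, n = 3), of which ACAT2 made up 30.3%. ACAT2, the cytosolic thiolase that joins acetyl-CoA units, was at 53.7, 49.2 and 50.9 RPKM in vehicle cultures 1 to 3 and at 51.6, 45.8 and 51.7 with TGFβ. The groups overlapped, and culture 2 was the lowest of each. Its log2 fold change was −0.01 ± 0.09 (SE, adjusted p = 0.987). FDPS, farnesyl diphosphate synthase, was at 42.4, 37.9 and 38.3 RPKM in vehicle and 40.9, 36.5 and 37.4 with TGFβ, again with overlap, culture 1 highest and culture 2 lowest in both groups. It differed by −0.01 ± 0.08 (SE, adjusted p = 0.983).

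IDI1, the isomerase that makes dimethylallyl diphosphate, had the highest estimate of all members and was singled out after its values were seen. Its read counts scaled to library size (CPM) were 72.7, 71.4 and 90.5 in vehicle and 94.2, 73.1 and 99.8 with TGFβ. Each TGFβ culture was above the vehicle culture of its number, but the groups overlapped, with TGFβ culture 2 near the lower vehicle cultures. The log2 ratios within numbers 1 to 3 were 0.37, 0.03 and 0.14, and the adjusted p was 0.643 without and 0.106 with the block. HMGCS1, the cytosolic HMG-CoA synthase, was also chosen after its values were seen because its standard error was the largest of the members: 142, 153 and 221 CPM in vehicle and 162, 126 and 197 with TGFβ. Culture 3 was highest in both groups, and the log2 fold change was −0.09 ± 0.19 (SE). Without both cultures numbered 1, the fit with the block put HMGCS1 at −0.23 with an adjusted p of 0.0265. That fit called 2390 of 22918 genes. Without both numbered 2, the fit with the block put IDI1 at 0.27 with an adjusted p of 0.0408 and called 1480 of 22843 genes. For HMGCS1 and IDI1 the call thus turned on which pair was left out. The other genes of the arm were the kinases MVK (−0.04) and PMVK (−0.13), the decarboxylase MVD (0.07) and geranylgeranyl diphosphate synthase, GGPS1 (−0.06).

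In the sterol arm, 5 of 12 genes had an estimate above 0 and 7 below, with a median of −0.01 (log2). Its sum was 207 ± 11.2 RPKM in vehicle and 204 ± 20.1 with TGFβ, and its top gene, FDFT1, held 16.5%, so it was spread more evenly over its genes than the other arms. FDFT1, squalene synthase, was at 35.3, 31.8 and 34.5 RPKM in vehicle and 37.2, 30.9 and 34.5 with TGFβ. The values of the groups interleaved, with culture 1 highest and culture 2 lowest in both. The log2 fold change was 0.05 ± 0.10 (SE, adjusted p = 0.89). SQLE, squalene epoxidase, was at 27.4, 27.3 and 32 RPKM in vehicle and 31.8, 27.0 and 31.4 with TGFβ. Here only culture 1 differed visibly between the groups, and the log2 fold change was 0.10 ± 0.11 (SE, adjusted p = 0.802).

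The remaining steps of the sterol arm gave log2 fold changes near 0. LSS, which closes the ring to lanosterol, was at 0.01, and the lanosterol demethylase CYP51A1 at −0.00. The enzymes that strip and reshape the ring after it were TM7SF2, a sterol reductase, at −0.03, the methylsterol oxidase MSMO1 at −0.02, the decarboxylating dehydrogenase NSDHL at −0.01 and the keto reductase HSD17B7 at −0.11. The sterol isomerase EBP was at −0.03, the sterol desaturase SC5D at 0.02 and DHCR7, which makes cholesterol from its dehydro precursor, at 0.04. STARD4, a sterol carrier rather than an enzyme, was at −0.06. In none of the 12 did the groups separate. HSD17B7 was the least abundant of the arm, at 1.24 ± 0.03 RPKM in vehicle and 1.12 ± 0.10 with TGFβ.

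The fatty acid arm carried the most RNA per length of the 3, at 390 ± 23.6 RPKM in vehicle and 389 ± 53.6 with TGFβ. Stearoyl-CoA desaturase, SCD, made up 48.3% of it and ranked 136 by RPKM among all tested genes. SCD was at 199.7, 172 and 190.1 RPKM in vehicle and 223, 163 and 181 with TGFβ. The TGFβ cultures enclosed the vehicle range on both sides, and the log2 fold change was 0.05 ± 0.12 (SE, adjusted p = 0.922). ACLY, the citrate lyase that supplies cytosolic acetyl-CoA, was at 66.2, 58.2 and 60.5 RPKM in vehicle and 66.0, 56.3 and 56.9 with TGFβ. In both groups culture 1 stood above the other two, and the log2 fold change was −0.01 ± 0.09 (SE, adjusted p = 0.984). FASN, fatty acid synthase, had a similar level of 57.9 ± 3.45 RPKM in vehicle and 57.0 ± 12.6 with TGFβ and a log2 fold change of 0.01.

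Of the 11 tested genes of the arm, 7 had an estimate above 0 and 4 below, and the median was 0.01 (log2). ELOVL1, an elongase of very long chains, and ELOVL5, an elongase of polyunsaturated chains, were the 2 members whose groups did not overlap, against 10.4% of all genes for higher and 8.23% for lower. ELOVL1 was at 50.98, 47.4 and 43.3 CPM in vehicle and 53.0, 51.8 and 51.6 with TGFβ, and every TGFβ culture exceeded every vehicle culture by a small margin. Its log2 fold change was 0.14 ± 0.08 (SE, adjusted p = 0.515, and 0.144 with the block). ELOVL5 was at 103, 108 and 106 CPM in vehicle and 111, 109 and 113 with TGFβ. It differed by 0.07 ± 0.06 on the log2 scale (SE, adjusted p = 0.761). In the deposited RPKM, which is scaled by other library totals, the groups of both genes overlapped. ELOVL6, which elongates palmitate, had the lowest estimate, −0.18 ± 0.10 (SE, adjusted p = 0.538). It was at 25.8, 30.3 and 31.0 CPM in vehicle and 27.8, 22.7 and 26.2 with TGFβ, so pair 1 ran against pairs 2 and 3. Without both cultures numbered 1 the fit with the block gave −0.34 for ELOVL6 with an adjusted p of 0.0143. That fit called 2390 of 22918 genes. These elongases were described in full after their values were seen.

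The other genes of the arm differed little. The carboxylases that make malonyl-CoA were at −0.07 (ACACA) and −0.14 (ACACB), the desaturases FADS1 and FADS2 at 0.01 and 0.03, and ACSS2, which makes acetyl-CoA from acetate, at 0.06. ACACA exceeded ACACB by 4.91 to 6.05 times in RPKM over the 6 cultures, and ACLY exceeded ACSS2 by 4.71 to 5.87 times. ME1, the malic enzyme that yields NADPH, was listed at 0 reads in all 6 cultures. A floor of 3 reads allows it a level of up to 0.00744 to 0.0118 RPKM. That limit covers counting error only and holds only if the deposited counting could assign reads to ME1, which could not be settled from the table.

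**Figure D2:**
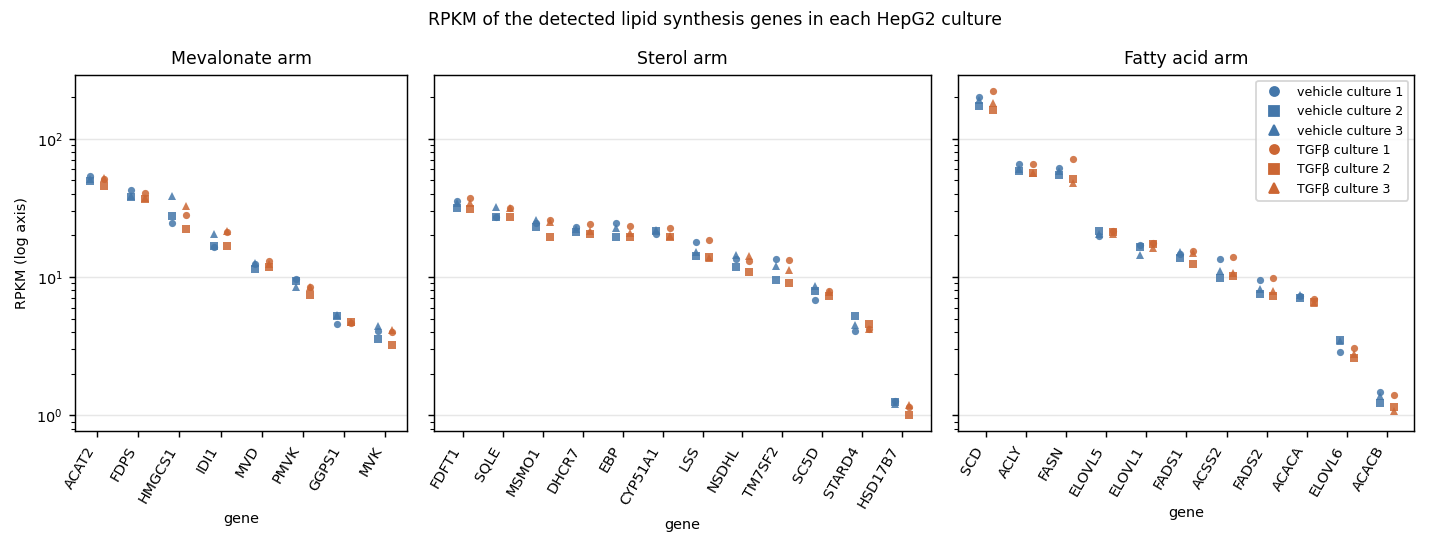
RPKM (log axis) of the 31 detected enzymes in each culture, by arm and in order of mean level. Blue marks are vehicle and orange marks TGFβ, and circles, squares and triangles are cultures 1, 2 and 3; SCD leads at 163 to 223 RPKM and HSD17B7 and ACACB lie near 1, with the 2 colours interleaved in nearly every gene.

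Levels of the enzymes followed the culture number more than the treatment. In 23 of 31 members (74.2%) culture 2 was the lowest of its 3 in both the vehicle and the TGFβ group, against 15.4% of all tested genes. This held for 5 of 8 mevalonate, 10 of 12 sterol and 8 of 11 fatty acid genes. The 3 cultures stood in the same order in both groups for 21 members (67.7%), against 31.7% of all genes. In the quartile of genes with the highest mean CPM, the same order was found for 16 of 23 members and 38.5% of genes. TM7SF2 showed it most plainly, with 56.8, 38.2 and 50.5 CPM in vehicle cultures 1 to 3 and 55.6, 37 and 49.8 with TGFβ. ACSS2 followed, with 88.8, 62.9 and 73.2 CPM against 92.9, 66.4 and 74.8. In both genes culture 2 was lowest by more than any gap between treatments.

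Split into sums of squares of log2(CPM + 0.5), culture number held a median of 83.7% of a member's variation, against 50.4% over all genes. Treatment held 2.01%, against 17.5%. Culture number has 3 levels and treatment 2, so number takes the larger share on average even without an effect. The share of culture number was over that of treatment in 28 of 31 members, the exceptions being ELOVL1, ELOVL5 and ELOVL6, and in 68.8% of all genes. It was highest for ACLY (99.6%) and TM7SF2 (99.5%). Culture 1 was highest in both groups for 13 members, among them SCD, FASN and FDPS, and culture 3 for 9, among them HMGCS1, IDI1 and SQLE. STARD4 was the 1 member with culture 2 highest in both.

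Other measures moved with the culture number. Both cultures 1 were run on lane 1 and both cultures 2 on lane 3. For these, lane and number cannot be told apart. Vehicle culture 3 was on lane 4 and TGFβ culture 3 on lane 5, so within number 3 lane and treatment cannot be told apart. Culture 2 was lowest in both groups for 7 of 8 hepatocyte markers, ALB, AFP and TTR among them. Among all genes the share lowest in culture 2 of both groups was larger at high levels, from 10.2% in the quartile with the lowest mean CPM to 20.1% in the highest, which held 23 members, 19 of them with that pattern. It was also larger at high GC content of the transcript, from 7.72% to 22.0%, and the pattern was found in 4 of 10 members in the lowest GC quartile and 8 of 9 in the highest. The part of lane, level and base composition in the members' pattern was not tested.

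**Figure D3:**
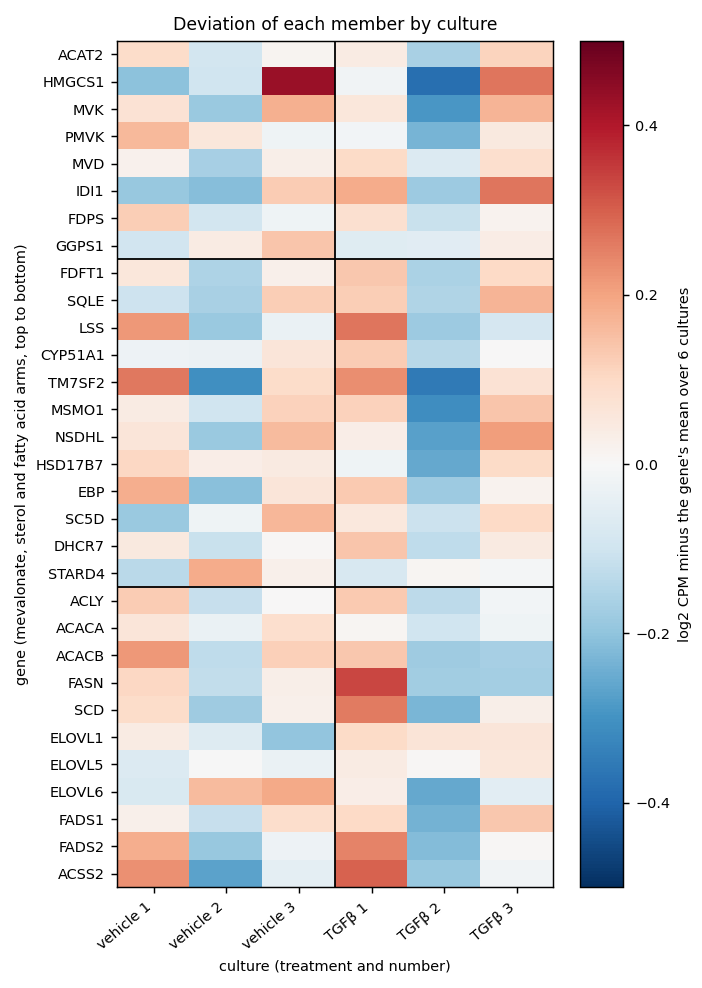
Deviation of log2 CPM from the mean of each gene over 6 cultures (colour, red above and blue below) for the 31 tested enzymes (rows, by arm) in vehicle and TGFβ cultures (columns). The column of culture 2 is blue for most genes on both sides of the treatment line, with 23 genes lowest there in both groups.

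Most promoters of the members held the same short motif. Sequences 250 bases upstream of the RefSeq start site (GRCh38.p14 table) were matched by symbol for 28 of the 32 genes, all but ACAT2, FDFT1, SQLE and FASN. The motif CCAAT, the core bound by NF-Y, a known partner of SREBP, occurred on either strand in 22 of 28 (78.6%), against 37% of 27305 genes, and at least 2 copies were found in 15, against 11.5%. The sterol element in its strict form, TCACNCCAC, occurred in 0 of 28 members and 1.09% of genes, and the looser form TCACNCNAC, which contains it, in FDPS, HSD17B7, FADS2 and ACSS2 (14.3%, against 2.48%). CAGAC, the core bound by SMAD factors, occurred in 10 (35.7%, against 42.8%), and CACGTG in SC5D and ELOVL5 (7.1%, against 7.73%). These matches on both strands are descriptions of letters in a window, not of bound sites. The stretch from 190 to 21 bases before the start is given in gene orientation for 6 members from the 3 arms. CCAAT (or its reverse complement ATTGG) and TCACNCNAC are in capitals. FDPS and HSD17B7 hold both motifs. MSMO1 and NSDHL have 4 CCAAT matches each, of which a pair in NSDHL overlaps, and MVD has 3. ELOVL5 is the one of the elongases with more than a single copy of CCAAT. Each stretch matched GRCh37 exactly, at chr1:155278467-155278636 (plus strand), chr16:88729520-88729689 (minus), chr4:166248631-166248800 (plus), chrX:151999417-151999586 (plus), chr1:162760302-162760471 (plus) and chr6:53213769-53213938 (minus).
FDPS: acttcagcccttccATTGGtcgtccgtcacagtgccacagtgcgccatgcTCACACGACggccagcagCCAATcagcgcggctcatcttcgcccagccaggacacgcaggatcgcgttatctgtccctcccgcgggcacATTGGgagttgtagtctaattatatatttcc
MVD: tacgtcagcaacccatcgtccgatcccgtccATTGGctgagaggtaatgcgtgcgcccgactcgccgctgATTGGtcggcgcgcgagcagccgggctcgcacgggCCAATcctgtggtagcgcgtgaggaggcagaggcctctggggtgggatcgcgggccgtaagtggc
MSMO1: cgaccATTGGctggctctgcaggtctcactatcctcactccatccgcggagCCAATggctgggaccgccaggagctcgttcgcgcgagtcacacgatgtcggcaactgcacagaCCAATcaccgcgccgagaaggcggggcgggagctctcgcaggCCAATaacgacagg
NSDHL: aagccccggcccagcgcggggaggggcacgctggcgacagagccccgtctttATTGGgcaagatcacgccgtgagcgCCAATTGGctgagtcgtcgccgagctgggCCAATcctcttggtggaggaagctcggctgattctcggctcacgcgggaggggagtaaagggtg
HSD17B7: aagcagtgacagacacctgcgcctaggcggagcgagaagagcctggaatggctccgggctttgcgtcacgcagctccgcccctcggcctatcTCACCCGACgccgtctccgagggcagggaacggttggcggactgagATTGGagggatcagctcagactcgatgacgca
ELOVL5: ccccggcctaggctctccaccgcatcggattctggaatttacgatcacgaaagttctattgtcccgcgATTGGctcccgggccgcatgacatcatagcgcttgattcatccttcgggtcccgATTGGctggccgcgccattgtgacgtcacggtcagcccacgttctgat
With 3 CCAAT matches FDPS had a log2 fold change of −0.01 and MVD 0.07, and with 4 MSMO1 had −0.02 and NSDHL −0.01. All 4 lay lowest in culture 2 of both groups, as did 23 of the 31 tested members. Among members with at least 2 CCAAT copies, HMGCS1, STARD4 and ELOVL5 did not. PMVK, CYP51A1, ELOVL6, FADS1, FADS2 and ME1 had no CCAAT in the window, and of these CYP51A1, FADS1 and FADS2 were lowest in culture 2 as well.

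Genes around the 3 arms were read from lists of 65 genes, of which 62 were tested. 2 were called higher and 1 lower without the block, where 4.12% of all tested genes were called, and 7 higher and 4 lower with it, where 11.8% were. Among 15 listed regulators, 13 were tested and 1 was called higher: C12orf49, also named SPRING1, a Golgi protein needed for SREBP activation. It was at 102, 94.3 and 103 CPM in vehicle and 254, 257 and 271 with TGFβ. All TGFβ cultures were far above all vehicle cultures, with a log2 fold change of 1.39 ± 0.07 (SE, adjusted p = 1.5e-05), a call kept in every setting run.

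The SREBP genes themselves gave smaller values. SREBF1, which encodes the factor that mostly drives fatty acid genes, was at 74.9, 68.8 and 77.2 CPM in vehicle and 94.1, 85.6 and 80.5 with TGFβ. Its groups did not overlap in CPM but did in the deposited RPKM, and the log2 fold change of 0.24 ± 0.08 (SE) had an adjusted p of 0.197 without the block and 0.0271 with it. SREBF2, which encodes the factor for sterol genes, differed by 0.11 ± 0.08 (SE, adjusted p = 0.643) and was 1.92 to 2.23 times SREBF1 in RPKM. The escort protein gene SCAP was at 0.07 and the retention protein gene INSIG2 at 0.08, neither called. INSIG1, the other retention protein and a known SREBP target, had 2, 3 and 2 reads in vehicle and 2, 5 and 0 with TGFβ, too few to test. Whether these few reads reflect its level or the deposited counting could not be settled from the table either.

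In 3 of the other lists, calls were found only with the block. Of 11 isoprenoid branch genes 0 were called, and RABGGTB, a subunit of a Rab prenyl transferase, was lower with the block (−0.32, adjusted p = 0.00682). Of 7 tested genes for acetyl-CoA, ketone and NADPH supply 0 were called, and the citrate carrier SLC25A1 was higher with the block (0.23, adjusted p = 0.0122). Of 16 other elongation, desaturation and mitochondrial synthesis genes 0 were called, and PTPLB, a dehydratase of the elongation cycle, was higher with the block (0.29, adjusted p = 0.00181).

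Of 15 genes for acyl-CoA activation and esterification, 1 rose and 1 fell without the block, against 4.12% of all genes called, and 3 were higher and 3 lower with it, against 11.8%. ACSL1, an acyl-CoA synthetase, rose and LPIN1, a phosphatidate phosphatase, fell. ACSL1 was at 138, 111 and 135 CPM in vehicle and 188, 157 and 177 with TGFβ (log2 fold change 0.44 ± 0.10 SE, adjusted p = 0.0386). LPIN1 was at 14.0, 16.0 and 16.0 CPM in vehicle and 11.7, 10.5 and 11.7 with TGFβ (−0.44 ± 0.10 SE, adjusted p = 0.0412). Neither pair of groups overlapped, but the call of ACSL1 was lost without vehicle culture 2 (adjusted p = 0.136), vehicle culture 3 (0.105), TGFβ culture 1 (0.125) or TGFβ culture 3 (0.0705), and that of LPIN1 without any culture but vehicle 1 (0.0551 to 0.194). With the block the acyltransferases GPAM (0.20) and AGPAT2 (0.73) were also higher, and ACSL5 (−0.23) and LPIN2 (−0.24) lower. Without the block the adjusted p of the 8 genes called only with it, SREBF1 included, ran from 0.0559 (PTPLB) to 0.63 (SLC25A1).

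**Figure D4:**
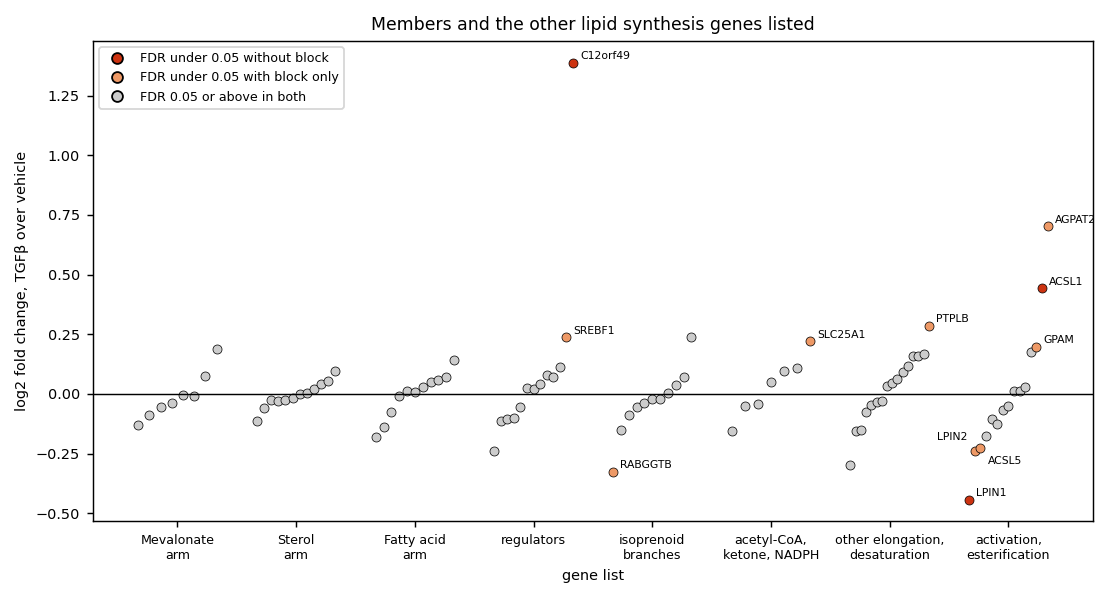
Log2 fold change of TGFβ over vehicle (y axis) for the tested enzymes of the 3 arms and the 62 tested genes of the other lists (x axis); each circle is a gene, dark red where the adjusted p is under 0.05 without the block and light orange where only with it. All circles of the 3 arms are grey, and C12orf49 is the highest point at 1.39.

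Some counts may include reads of neighbours, since the strand setting of the counting is not given. Of the members, 21 overlapped another gene of the table, and for 15 the overlapping gene had at least 100 reads in every culture. Of the overlapping genes 24 were tested and 0 called, with or without the block. AL139819.1 lies within SCD and had 232 RPKM, LRRD1 spans CYP51A1 at 10.8 RPKM, FADS1 and FADS2 overlap each other and FADS2 overlaps FEN1 (38.3 RPKM), TCP1 (76.9 RPKM) and SOD2 (15.2 RPKM) overlap ACAT2, and RUSC1-AS1 overlaps FDPS (19.3 RPKM). How reads were shared out between overlapping genes was not tested, so the levels of these members are uncertain.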

How the data were processed

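The authors sequenced mRNA (TruSeq v2, paired reads of 51 bases) and, per the submitters' notes and the study's methods, used TopHat2 2.0.6, HTSeq and MAPRseq 2.0.0 on hg19. They deposited the raw read count per gene in each culture and, beside it, the RPKM, which the deposited coding length scales. Neither strand setting nor annotation release is stated in those sources. Groups and numbers came from the labels.

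Counts were tested for all 22747 genes passing filterByExpr with edgeR 4.0.16 (R 4.3.3, limma 3.58.1): TMM scaling, robust quasi-likelihood F test, treatment only, Benjamini-Hochberg adjustment, threshold 0.05. CPM are TMM-scaled, and RPKM were used for levels only. Replicates of a group were not duplicates (chi-square of their counts per gene, 21.7 to 47.3). Deviations of same-numbered cultures correlated across genes at 0.366, 0.227 and 0.316, and those of different numbers at 0.0101 at most, and the cultures were treated as paired by number. An exact permutation test of 3 against 3 cannot give a p below 0.1. Scaling, filter, tool (DESeq2 1.42.0, limma-voom), block and left-out cultures were varied. The steps were also tested on simulated data, with changes larger than those of the members and no effect of culture number. That test does not cover small changes or the block under an effect of culture number.

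Every member is named, with values per culture for the 2 most abundant of each arm. Of the other lists, genes called without or with the block are named, and always SREBF1, SREBF2, SCAP, INSIG1 and INSIG2, with overlapping genes that hold reads. Members and lists were chosen with earlier results of these data known. A gene of these lists is not reported here.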

Additional observations from a re-analysis of the deposited data

How the results depend on the processing

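Under every planned setting 0 members were called. A reversal could be seen only where the main estimate exceeded its standard error. Those members were PMVK, IDI1, ACACA, ACACB, ELOVL1, ELOVL5 and ELOVL6, and none of them reversed. 21 members, all with main estimates within 0.09 of 0 on the log2 scale, changed sign under at least 1 planned setting. Of these, 7 did so with all 6 libraries kept. The estimate furthest from 0 after a change of sign was −0.18 ± 0.09 (SE), for FASN without TGFβ culture 1. Over all genes the 937 calls became 2690 with the replicate block (paired by culture number), 1420 with DESeq2 and 485 to 998 without 1 replicate. Chosen after seeing the data, the replicate block was also fitted without both cultures numbered 1, 2 or 3. These fits called 2390 of 22918, 1480 of 22843 and 3063 of 23062 tested genes. Among the 31 tested members they called 2 (HMGCS1 and ELOVL6, both lower), 1 (IDI1, higher) and 0. Without 1 replicate the median log2 fold change ran from −0.0831 to 0.0551 in the mevalonate arm, −0.0564 to 0.0895 in the sterol arm and −0.093 to 0.0881 in the fatty acid arm. Each highest value came without TGFβ culture 2, the culture in which most members were lowest. The cause of these shifts in the medians was not tested. With 3 cultures per group, each member's interval still allows changes up to its bounds.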
